A study of Mus musculus with 4 samples.

Results

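The receptors for the myeloid growth factors M-CSF, GM-CSF, G-CSF, IL-3, IL-5 and IL-6 were followed in sorted preproB cells of mouse bone marrow, with and without an enhancer of Cebpa. Their 9 genes, chosen by name among the 31541 gene names of the array, were Csf1r, Csf2ra, Csf2rb, Csf2rb2, Csf3r, Il3ra, Il5ra, Il6ra and Il6st. They had 13 probes among the 39429 probes of a 1-colour Agilent expression array: 3 for Csf1r, 2 each for Csf2rb and Csf2rb2, and 1 for each of the other 6 genes. Every value below is a processed fluorescence signal in intensity units, or the log2 of it after each array was set to its own 75th percentile. Differences are EnhDel minus control.

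The EnhDel group held 2 samples from C57BL/6 mice homozygous for a floxed Cebpa enhancer, located +37 kb from the gene, and carrying the Mx1-Cre transgene, both labelled male and 24 weeks old. The control group held 2 samples from C57BL/6 mice with the same homozygous floxed enhancer and no Cre, of which replicate 1 was labelled female and 26 weeks old and replicate 2 male and 24 weeks old. The mice of all 4 samples had received 3 doses of pIpC, an interferon inducer and so an activator of the Mx1 promoter. The doses were given every other day, 5 weeks before marrow was taken. Cre and enhancer loss therefore came together in the EnhDel group and cannot be told apart. The sort kept lineage-negative cells that were B220+, CD43+, BP1- and CD24-. With 2 samples a group, an SD rests on a single gap between arrays, and the spread behind each p-value may be technical, since nothing says how the samples of a group were kept apart.

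Cebpa, whose enhancer was deleted, had signals of 125 and 287 on the EnhDel arrays, against 1271 and 927 on the control arrays, a difference of -2.42 ± 0.45 (SE) on the log2 scale. Both EnhDel samples thus lay below both control samples, although limma's adjusted p was 0.246. Of the gate's genes, Ptprc (B220) and Spn (CD43) were well above background on all 4 arrays and Enpep (BP1) on none. Cd24a, which encodes the CD24 that the gate excluded, was above background on all 4, with 4386 and 1910 on the EnhDel arrays and 4779 and 6366 on the control arrays. The sex labels did not match the arrays in 2 samples. Xist, transcribed from the inactive X chromosome, was above background on EnhDel replicate 2 alone (1551), which was labelled male. There the Y-linked gene Ddx3y read 1560, against 3624 on EnhDel replicate 1 and 3116 and 3474 on the control arrays. Y-linked Eif2s3y read 2635 there, against 5561 on EnhDel replicate 1 and 4917 and 6840 on the control arrays. Kdm5d and Uty, also Y-linked, were likewise lowest on EnhDel replicate 2 and above background on all 4 arrays. EnhDel replicate 2 thus held Xist and Y-linked RNA together, and whether it mixed cells of both sexes was not tested. Control replicate 1, labelled female, had Xist at background. Receptor values that move when either sample is left out are also given that way.

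Markers of other marrow cells also differed between the arrays, and in bulk RNA fewer cells of a type and less RNA per cell cannot be told apart. Of 11 monocyte and macrophage markers, 10 were on the array, 1 of them (Fcgr1) above background nowhere. Their summed signal was 13009 and 19537 on the EnhDel arrays against 24797 and 23700.0 on the control arrays. Gene by gene, 9 were tested, with 7 negative and 2 positive differences and a median log2 difference of -2.33. Both EnhDel arrays lay below both control arrays on 5 of them and above on 1 (16.8% and 26.9% of all tested probes). The 12 neutrophil markers summed to 1097 and 10819 on the EnhDel arrays and to 19400 and 25970 on the control arrays, with Ltf, Ngp, Mmp8 and Mmp9 above background on no array. Of the 8 neutrophil markers tested, both EnhDel arrays lay below both control arrays on 6 and above on 2, with a median log2 difference of -1.08. The higher ones were Lcn2 (0.82) and Camp (0.34). Mpo, the brightest, read 534 and 7219 on the EnhDel arrays and 13685 and 18170 on the control arrays. All 9 markers of plasmacytoid dendritic cells, which also carry B220, were above background on all 4 arrays, with sums of 895751 and 919997 for EnhDel and 955008 and 972532 for control. The part of such cells in the receptor values was not tested.

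Receptors of this set are the surface proteins through which marrow progenitors sense the cytokines that keep them alive and steer them towards granulocytes and macrophages. Csf1r, the M-CSF and IL-34 receptor, is a tyrosine kinase that works as a homodimer, and Csf3r, the G-CSF receptor, is a single chain that pairs with itself. The receptors for IL-3, GM-CSF and IL-5 each join their own alpha chain (Il3ra, Csf2ra, Il5ra) to the common beta chain Csf2rb, and mice carry a second beta chain, Csf2rb2, that serves IL-3 alone. The IL-6 receptor joins Il6ra to gp130, encoded by Il6st, which many cytokines of the IL-6 family share, and all but Csf1r signal through Janus kinases. C/EBPα and PU.1 are known regulators of Csf1r, Csf2ra and Csf3r in myeloid cells, and C/EBPα of Il6ra as well.

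All 13 probes were well above background on all 4 arrays. No probe passed an adjusted p of 0.05 in limma's test with Benjamini-Hochberg adjustment, in the receptors (adjusted p 0.226 to 0.993) or among all 24277 probes tested, of which 0% passed and the lowest adjusted p was 0.0556. At an unadjusted p of 0.05, 2 of the 13 probes passed (15.4%), the last Csf1r probe and Il6st, both lower in EnhDel, against 10.9% of all probes in either direction (4.07% lower and 6.79% higher). Differences were negative on 5 of 13 probes, against 41.6% of all probes. Past 1 log2 unit there was 1 lower receptor probe (2.89% of all probes) and 0 higher ones (2.96%). On 4 probes both EnhDel arrays lay below both control arrays (30.8%, against 16.8% of all probes), and on 2 both lay above (15.4%, against 26.9%). On the other 7 the groups overlapped, so 46.2% of receptor probes did not overlap, against 43.7% of all probes, a share near the background. The median difference was 0.11 over the receptor probes and 0.06 over all probes.

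**Figure D1:**
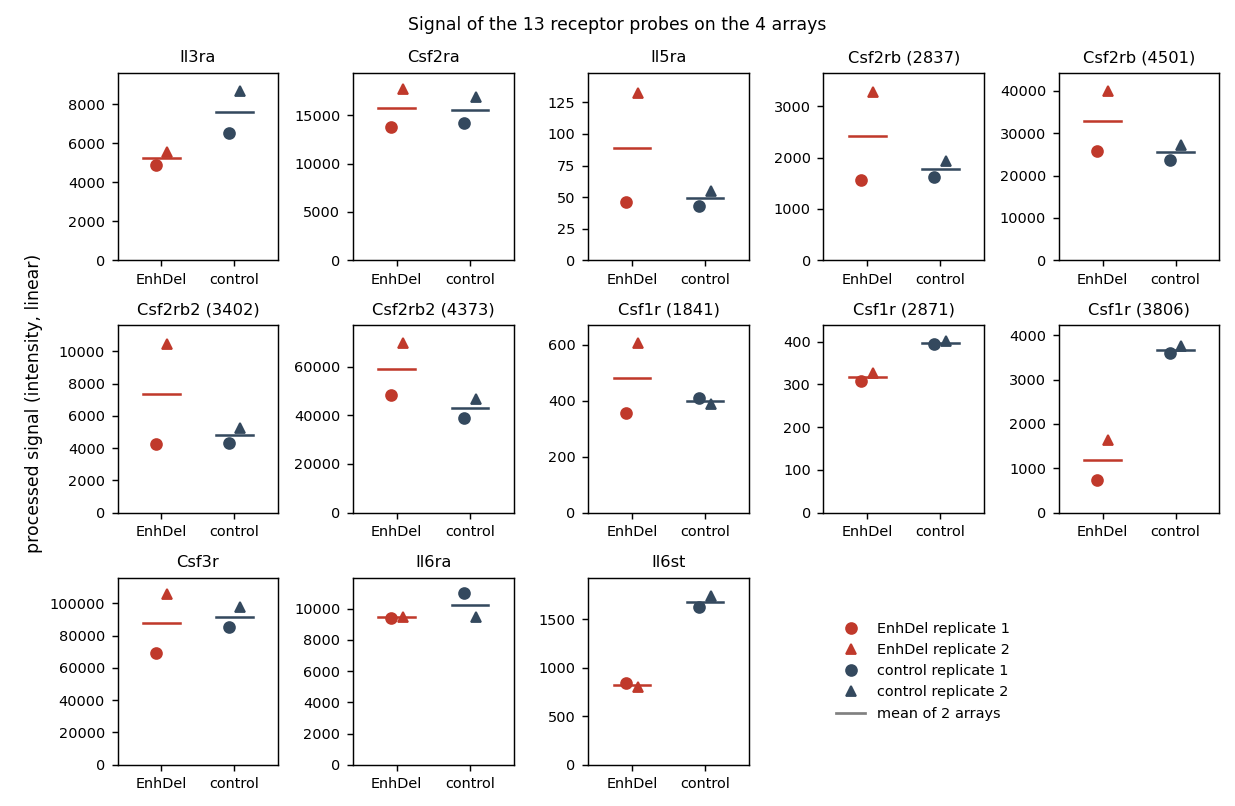
Processed signal (intensity, linear axis from 0) of each of the 13 receptor probes on the 2 EnhDel and the 2 control arrays, with the mean of each group as a line; numbers in titles are the probe's start on its transcript. Il6st and the Csf1r probe at 3806 show EnhDel arrays clearly below the control arrays, and Il5ra, Csf2rb and Csf2rb2 show EnhDel replicate 2 alone well above the rest.

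The plot of signals by array also shows that the EnhDel arrays differed from each other more than the control arrays did. The gap between the EnhDel arrays was the larger one on 10 of the 13 probes, and EnhDel replicate 2 was the higher of the pair on 10 of 13, against 49.8% of all tested probes. Over all probes the SD of the log2 difference between arrays was 0.60 for the EnhDel pair and 0.32 for the control pair.

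Among the ligand-binding alpha chains, Il3ra was the one on which the groups separated. Il3ra, the IL-3 receptor alpha chain, whose human protein CD123 marks plasmacytoid dendritic cells and basophils, was probed at chr14:15187898-15187957 (mm9, plus strand). Its signals were 4892 and 5569 on the EnhDel arrays, against 6525 and 8702 on the control arrays. The EnhDel pair lay wholly below the control pair, 1.35-fold lower on average, with a log2 difference of -0.43 ± 0.17 (SE; 95% interval -0.88 to 0.02; adjusted p = 0.474, limma). The interval reached 0, and the difference was -0.47 without EnhDel replicate 2 and -0.56 without control replicate 1.

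Csf2ra, the GM-CSF receptor alpha chain (chr19:61300336-61300395, minus strand), had signals of 13754 and 17701 on the EnhDel arrays and 14239 and 16898 on the control arrays. The groups overlapped, and the log2 difference was 0.11 ± 0.17 (95% interval -0.35 to 0.56), an interval that leaves out a change as large as 1 log2 unit in either direction. Il5ra, the IL-5 receptor alpha chain known from eosinophils and B-1 cells (chr6:106660378-106660437, minus strand), had 45.8 and 132.6 on the EnhDel arrays and 43.4 and 54.6 on the control arrays. A single array carried its difference of 0.78 ± 0.51 (95% interval -0.57 to 2.13). EnhDel replicate 1 stood 0.06 above the control mean and EnhDel replicate 2 stood 1.50 above it, on the log2 scale. Beside it, the summed signal of 10 eosinophil, basophil and mast cell markers was 467 and 2123 on the EnhDel arrays, against 569 and 686 on the control arrays, also with EnhDel replicate 2 apart. Epx, Ear1, Ms4a2 and Fcer1a were above background on no array. The mast cell protease gene Cpa3, picked out after its values were seen, read 330 and 1656 for EnhDel and 273 and 391 for control. Cpa3 made up most of the sum on EnhDel replicate 2. Of the 6 tested markers, 4 had positive and 2 negative differences. The negative ones were Hdc (2.65 and 51.9 for EnhDel, 82.9 and 81.4 for control) and Mcpt8 (5.23 and 59.2 for EnhDel, 52.8 and 58.9 for control). Each was above background on 1 EnhDel array. The part of these cells in the Il5ra value was not tested.

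**Figure D2:**
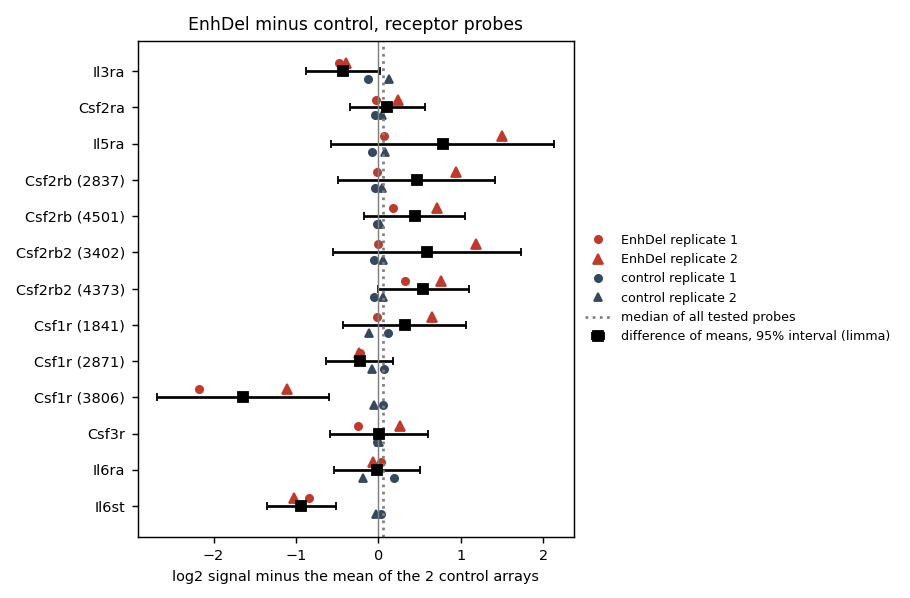
Log2 signal of each array minus the mean of the 2 control arrays (coloured points) and the EnhDel minus control difference with its 95% interval from limma (black squares), for the 13 receptor probes; the dotted line is the median of all tested probes. The intervals of Il6st (-1.36 to -0.52) and of Csf1r at 3806 (-2.68 to -0.61) leave out 0, and the others reach or cross it.

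The beta chains had positive differences on all 4 of their probes, each larger on EnhDel replicate 2 than on EnhDel replicate 1. Csf2rb and Csf2rb2 lie near each other on chromosome 15 and are products of a gene duplication, so the probes were compared letter by letter first. The probes nearest the 3′ end of each transcript (chr15:78181168-78181227, plus strand, for Csf2rb and chr15:78113126-78113185, minus strand, for Csf2rb2, mm9) shared a 30-base stretch that was identical in 27 bases. It covered bases 30 to 59 of the Csf2rb probe and bases 12 to 41 of the Csf2rb2 probe, and is shown because it bears on which gene each probe reads. Whether either probe also takes up RNA of the other gene was not tested. Capitals mark the identical bases, 5′ to 3′.
Csf2rb: GGCAGATCAAaTGTcCCTTGGTCTcTGTTC
Csf2rb2: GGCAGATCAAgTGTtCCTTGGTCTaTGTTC
The more upstream probe of each gene shared at most 15 of 30 bases with any probe of the other.

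On the upstream probe of Csf2rb, the beta chain common to IL-3, GM-CSF and IL-5 (chr15:78179504-78179563), signals were 1569 and 3286 on the EnhDel arrays and 1616 and 1926 on the control arrays. On that of Csf2rb2, the IL-3-specific beta chain (chr15:78114097-78114156), they were 4280 and 10442 on the EnhDel arrays and 4337 and 5233 on the control arrays. On both probes EnhDel replicate 1 was level with the controls and EnhDel replicate 2 was above them, and the groups overlapped. The log2 differences were 0.46 ± 0.36 for Csf2rb and 0.59 ± 0.43 for Csf2rb2 (SE; adjusted p 0.696 and 0.677, limma). Without EnhDel replicate 2 they were -0.020 and -0.0058, so the direction rested on that array.

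The Csf2rb 3′ probe read 25902 and 40068 on the EnhDel arrays and 23682 and 27250 on the control arrays, and the Csf2rb2 3′ probe read 48372 and 69757 on the EnhDel arrays and 38875 and 46919 on the control arrays. After scaling, both EnhDel arrays stood above both control arrays on each, with log2 differences of 0.44 ± 0.23 (adjusted p = 0.573) and 0.54 ± 0.21 (95% interval -0.01 to 1.09; adjusted p = 0.464, limma). Without EnhDel replicate 2 these became 0.18 and 0.33. Within arrays, the log2 signal of the Csf2rb2 3′ probe exceeded that of its upstream probe by 3.50 and 2.74 on the EnhDel arrays and by 3.16 and 3.16 on the control arrays. For Csf2rb the gaps were 4.05 and 3.61 on the EnhDel arrays and 3.87 and 3.82 on the control arrays. The EnhDel arrays thus lay on either side of the controls for both genes.

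The 3 probes of Csf1r gave unlike values. They start at bases 1841, 2871 and 3806 of the transcript and lie on chromosome 18, plus strand, of mm9. The first (chr18:61278661-61278720) read 355 and 607 on the EnhDel arrays and 410 and 389 on the control arrays, and the groups overlapped (0.32 ± 0.28, SE). The second (chr18:61289398-61289758, whose 60 bases span 361 on the genome and so cross an intron) read 307 and 327 on the EnhDel arrays and 394 and 400 on the control arrays, with both EnhDel arrays lower (-0.23 ± 0.15). The last (chr18:61290725-61290784) read 734 and 1647 on the EnhDel arrays and 3597 and 3757 on the control arrays, 3.12-fold lower (95% interval 1.52 to 6.41) with a log2 difference of -1.64 ± 0.39 and an adjusted p of 0.317 (limma).

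On that last probe EnhDel replicate 1 stood at -2.18 and EnhDel replicate 2 at -1.11 log2 units from the control mean, so the EnhDel arrays differed from each other by about as much as the weaker one differed from the controls. The difference was -1.59 without control replicate 1 and -1.69 without control replicate 2. With EnhDel replicate 1 left out the difference was -1.11, and with EnhDel replicate 2 left out it was -2.18. In both cases the lone array was assumed to vary like the others, and 15.3% and 0.486% of all probes passed in the same fits. The first Csf1r probe gave -0.020 without EnhDel replicate 2, against 0.32 with all arrays.

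**Figure D3:**
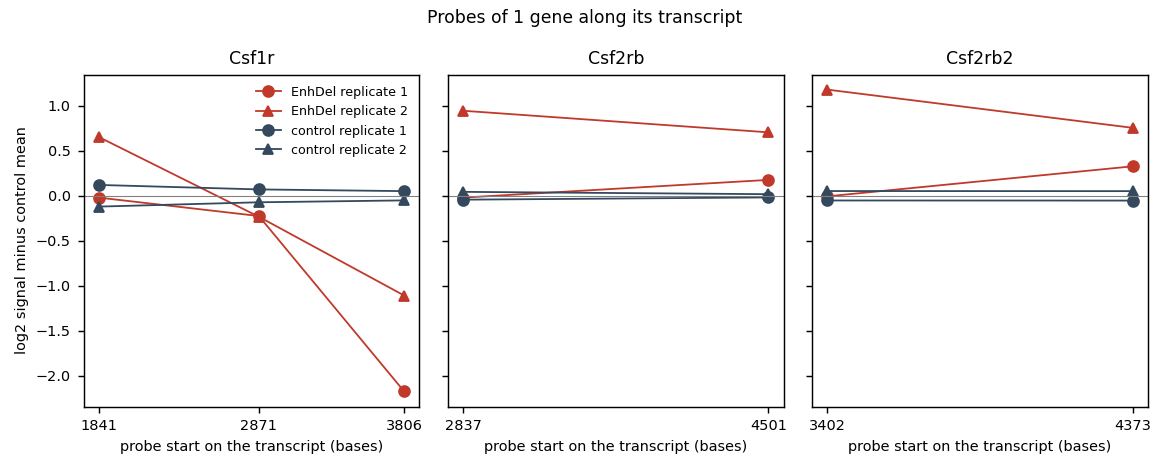
Log2 signal minus the mean of the 2 control arrays against the probe's start on the transcript in bases, for the 3 genes with several probes; each line joins the probes of 1 array. For Csf1r both EnhDel arrays stand furthest from the control arrays at the probe starting at 3806 (-2.18 and -1.11), while for Csf2rb and Csf2rb2 the EnhDel lines slope in opposite directions and the control lines run nearly level.

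The plot along the transcripts shows the disagreement within each array, where scaling plays no part. The log2 signal of the last Csf1r probe exceeded that of the first by 1.05 and 1.44 on the EnhDel arrays and by 3.13 and 3.27 on the control arrays. It exceeded that of the second by 1.26 and 2.33 on the EnhDel arrays and by 3.19 and 3.23 on the control arrays. The change in these gaps was -1.96 and -1.41, with no overlap of the groups, and the exact two-sided permutation p was 0.333, the smallest that 2 against 2 samples allow. The Csf1r probes thus gave different values for 1 gene, and which of them follows the full-length messenger was not tested. In the authors' deposited table, which has 1 value a gene on a log2 scale, Csf1r stood at 9.1 and 9.6 in EnhDel and at 9.9 and 9.7 in control, with no separate value for each probe. The monocyte and macrophage and neutrophil marker sums given above were also lower on both EnhDel arrays, although 2 tested markers of each list had positive differences. The part of such cells in the Csf1r value was not tested.

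Csf3r, the G-CSF receptor (chr4:125721478-125721537, plus strand), showed no difference that exceeded its error. Its signals were 69491 and 105467 on the EnhDel arrays and 85377 and 97495 on the control arrays, so the EnhDel values lay on either side of the controls. The log2 difference was 0.01 ± 0.22 (95% interval -0.59 to 0.60; adjusted p = 0.993, limma), and it was -0.24 without EnhDel replicate 2. Csf3r has a single probe here, and its last 30 bases read, 5′ to 3′, as follows.
Csf3r probe, bases 31 to 60: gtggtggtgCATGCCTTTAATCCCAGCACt
The capitals mark a 20-base run that 3 other probes of the array also held, 2 on the same strand and 1 as its reverse complement, and the letters resemble a B1 element, a short interspersed repeat common in mouse transcripts. Allowing at most 3 mismatches in 30 bases, the Csf3r probe matched 4 other probes (Mtif2, Nxnl1, Pclaf and 1 unnamed transcript), whose median difference was 0.001. Of the other 12 receptor probes, only the 3′ probes of Csf2rb and Csf2rb2 matched another probe, each other. Among 32851 promoters, read on either strand, 20-base runs of the Il5ra probe were found in 15 and of the Csf3r probe in 1. No other receptor probe had such a run there. Whether other RNAs add to the Csf3r or Il5ra signal was not tested.

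The IL-6 receptor's chains differed from each other. Il6ra, the IL-6-binding chain (chr3:89674054-89674113, minus strand), read 9423 and 9463 on the EnhDel arrays and 11030 and 9502 on the control arrays. After scaling the groups overlapped, with a log2 difference of -0.02 ± 0.20 (95% interval -0.54 to 0.50), which turned to 0.17 without control replicate 1 and 0.03 without EnhDel replicate 2. Il6st, the signalling chain gp130 (chr13:113296586-113296645, plus strand), read 842 and 797 on the EnhDel arrays and 1621 and 1738 on the control arrays. Both EnhDel arrays lay well below both controls and close to each other. Il6st was 1.91-fold lower in EnhDel (95% interval 1.43 to 2.56), a log2 difference of -0.94 ± 0.16 with an adjusted p of 0.226 (limma).

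Of the 13 probes Il6st had the smallest p. Its difference stayed between -1.11 and -0.85 under all 16 alternatives run. It was -1.03 without EnhDel replicate 1 and -0.85 without EnhDel replicate 2. With control replicate 1 left out it was -0.90, and with control replicate 2 left out -0.97. In each of these fits the lone array of its group was assumed to vary like the others. In the authors' deposited table the Il6st difference was -0.90. The single probe of Il6st leaves no second probe to compare it with.

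**Figure D4:**
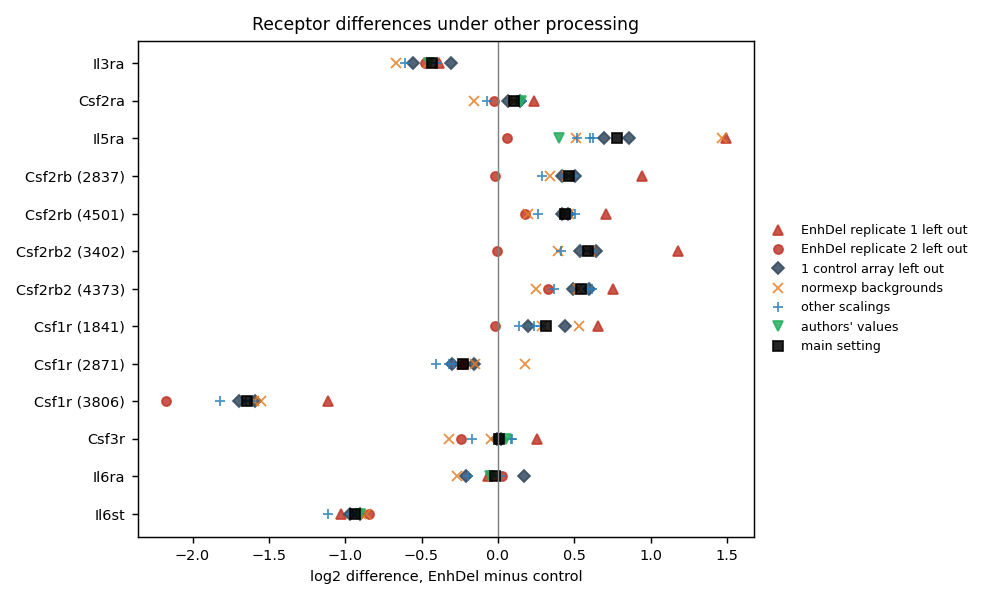
EnhDel minus control log2 difference of each receptor probe under the main setting (black squares) and under the alternatives, by kind. Il6st keeps to -1.11 to -0.85 and Il3ra to -0.67 to -0.31, Il5ra runs from 0.06 to 1.50, and Csf3r, Il6ra and Csf2ra lie on both sides of 0.

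For the genes with the largest receptor differences, Csf1r (probe at 3806) and Il6st, the genes with the most similar pattern were found by root mean square distance between log2 values over the 4 arrays, each gene centred on its own mean, among 12974 genes. Nearest to Csf1r were Fcgrt, the neonatal Fc receptor (distance 0.07), the semaphorin Sema4a (0.08) and Plau, the urokinase (0.09). Fcgrt read 312 and 681 on the EnhDel arrays and 1450 and 1411 on the control arrays, and Sema4a read 380 and 743 on the EnhDel arrays and 1782 and 1955 on the control arrays. Plau was near the array's lower limit, above background on 1 of 2 EnhDel arrays and on both control arrays. Nearest to Il6st were Ttl, a tubulin tyrosine ligase (0.01), the homeobox gene Hoxa3 (0.02) and Cd200r1, an inhibitory myeloid receptor (0.05). Cd200r1 read 733 and 649 on the EnhDel arrays and 1369 and 1381 on the control arrays. With 4 arrays such closeness is a description of these samples.

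Promoters of the receptor genes were searched for the letters that C/EBP factors and PU.1 are known to bind, since C/EBPα is the product of the gene whose enhancer was deleted. RefSeq promoters (GRCm38.p6, 250 bases before to 50 after each start) were given for 7 of the 9 genes, Csf1r and Csf2rb not among them. The stricter C/EBP word TTGCNNAA, on either strand, was held by 1 of the 7, Il3ra, and by 10.8% of all 32851 promoters. The looser word TTNCNNAA, which includes the first, was held by Csf2ra, Csf2rb2, Il3ra and Il6ra, and by 40.7% of all promoters. The PU.1 word GAGGAAGT was held by Csf2rb2 alone, against 3.20% of all promoters, and its core GAGGAA by Csf2ra, Csf2rb2, Csf3r, Il5ra and Il6ra, against 28.3%. The strict matches are shown in capitals, on the gene's strand, with the Il3ra match at -134 from the start (chr14:14346350-14346379, plus strand) and the Csf2rb2 match 27 bases after it (chr15:78305676-78305705, minus strand).
Il3ra promoter: atctcaggaagTTGCTCAAtctcgggacca
Csf2rb2 promoter: gggcactggcaACTTCCTCaatctgctctc
In the Csf2rb2 window the PU.1 word is read on the opposite strand and overlaps a match of the looser C/EBP word. Among the genes with the looser C/EBP word, log2 differences were -0.43 for Il3ra, 0.11 for Csf2ra and -0.02 for Il6ra. They were 0.59 and 0.54 on the upstream and 3′ probes of Csf2rb2. Il6st (-0.94) held none of the 4 words in its window. Whether any of these words bears on the receptor values was not tested.

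The other genes of these pathways were read from lists, by the brightest tested probe of each gene. No gene of any list passed the adjusted threshold, and 0% of all probes did. Of 14 ligand genes 7 were tested, with 6 positive and 1 negative difference. Csf2, Csf3, Il5, Il6, Lif and Ctf1 were above background on no array, among them the genes of GM-CSF, G-CSF, IL-5 and IL-6 themselves. Il34, the second ligand of Csf1r, read 49.1 and 74.1 on the EnhDel arrays and 35.6 and 39.6 on the control arrays (0.78 ± 0.22), and Csf1, the first, read 93.1 and 273 on the EnhDel arrays and 76.4 and 132 on the control arrays, with overlap. Il3 was above background on both EnhDel arrays (13.2 and 18.3) and on neither control array. With the controls set at the lowest signal well above background, its mean was 1.18-fold higher in EnhDel. Its adjusted p of 0.445 (limma) came from the signals as read, without that setting. That setting is not a strict limit. Il11, at 15.3 on control replicate 2, was not called above background, although the lowest signal so called on that array was 13.7.

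Of 6 genes listed as other partners of gp130, 4 were tested, all with positive differences between 0.23 and 0.44, beside the negative difference of Il6st. Of all tested probes, 41.6% had negative differences. The smallest of the 4 was that of Ebi3, which encodes a secreted cytokine subunit and not a receptor. The LIF receptor gene Lifr read 19452 and 17607 on the EnhDel arrays and 17579 and 14741 on the control arrays (0.30 ± 0.22). Il11ra1, the IL-11 receptor, gave 0.36 and Il27ra, the IL-27 receptor, 0.44. Osmr and Cntfr were above background on no array.

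Of 6 other early growth factor receptors, Kit and Flt3 were lower and the other 4 higher on both EnhDel arrays than on both control arrays, after scaling (43.7% of all probes did not overlap). Kit, the stem cell factor receptor, read 228 and 240 on the EnhDel arrays and 410 and 453 on the control arrays (-0.78 ± 0.14), and Flt3, the Flt3 ligand receptor, read 9563 and 10278 on the EnhDel arrays and 16546 and 15976 on the control arrays. Epor, the erythropoietin receptor, read 68.1 and 33.8 on the EnhDel arrays, while on the control arrays it was not well above background. With the controls set as for Il3, its mean was 3.65-fold higher in EnhDel. Its adjusted p of 0.281 (limma) came from the signals as read. Beside Epor, 6 erythroid and megakaryocyte markers summed to 1242 and 1812 on the EnhDel arrays and 562 and 900 on the control arrays. Their part in the Epor value was not tested.

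**Figure D5:**
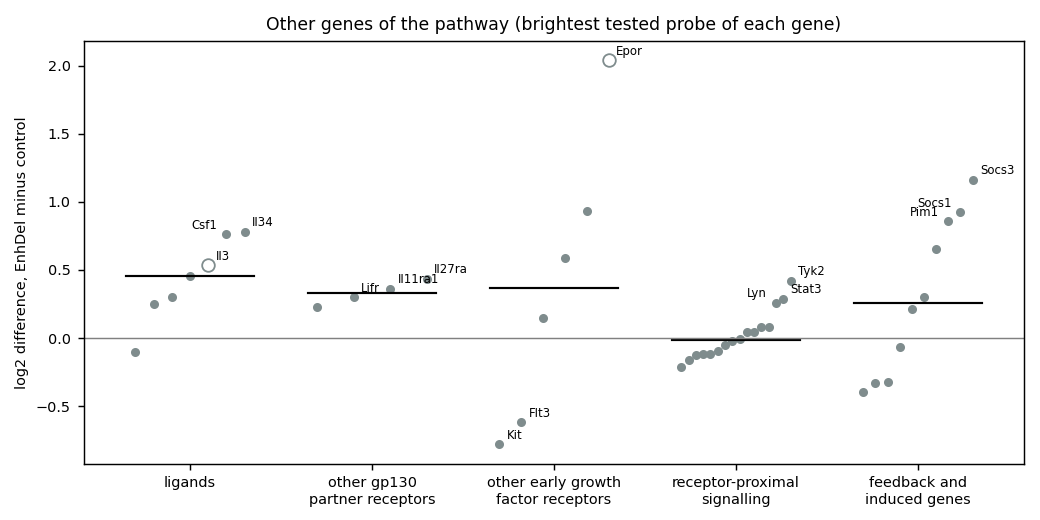
EnhDel minus control log2 difference of the brightest tested probe of each gene in 5 lists of related genes (grey points; white points were not well above background on either control array, so their size is not a measured fold), with each list's median as a line. Socs3 (1.16) is the highest of its list and Kit (-0.78) is the lowest point shown.

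Downstream of the receptors, 16 signalling genes had 7 positive and 9 negative differences and a median of -0.016, against 0.06 over all probes. Stat3, the main transcription factor downstream of gp130, read 13186 and 13148 on the EnhDel arrays and 11384 and 11694 on the control arrays (0.29 ± 0.15; adjusted p = 0.582, limma). Both EnhDel arrays were above both controls on Stat3 and on Lyn, a Src-family kinase (0.26), while on Tyk2, a Janus kinase (0.42), the groups overlapped. Among 10 feedback and induced genes, both EnhDel arrays were above both controls on 5 and below on 2 (26.9% and 16.8% of all probes), with a median difference of 0.26. Socs3, the feedback inhibitor that binds gp130 and the G-CSF receptor, read 3249 and 3727 on the EnhDel arrays and 1673 and 1661 on the control arrays (1.16 ± 0.16; adjusted p = 0.189, limma). Socs1, which blocks interferon and Janus kinase signalling, gave 0.92, and the serine kinase gene Pim1, a target of STAT factors, gave 0.86.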

How the data were processed

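Total RNA of 4 sorted preproB samples was labelled with Cy3 and hybridised to 4 arrays of 1 slide. Spot intensity values (processed signal) were deposited as the scanner wrote them, per the file headers with Agilent Feature Extraction 10.7.3.1 and mm9 probe positions. The authors also deposited 1 table of log2 values with 1 value a gene, whose normalization is not given in the sources used here. From the intensities, control spots and outlier-flagged spots were left out (9 probes lost), each array's 75th percentile of log2 processed signal was subtracted, and spots of a probe were averaged. The arrays had 23491 to 25580 probes well above background. Testing required a signal well above background on all arrays of the EnhDel group, the control group or both, which 24277 probes met. EnhDel was compared with control by limma 3.58.1 in R 4.3.3 (lmFit, eBayes, no covariates), with Benjamini-Hochberg adjustment over all tested probes and a threshold of 0.05. The fit was tested on simulated data: of 50 probes changed by 1 log2 unit it called 0, of 50 each changed by 2, 3 and 4 units it called 19, 40 and 42. Of 24077 unchanged probes it called 7. Replicate numbers did not pair the samples (correlation of deviations -0.0078), and nothing says that they mark a shared litter or day. The receptor probes were all named; from each of the 5 pathway lists the 3 tested genes of smallest p were named, and marker lists are given by sums and counts, and for 2 receptors the 3 nearest genes. Members and lists were chosen with earlier results of these data known. Alternatives covered background correction, scaling, the filter on dim probes, the authors' values, a replicate block and leaving out each array. A few genes of the lists are not reported here and entered no list count, sum or median.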

Additional observations from a re-analysis of the deposited data

How the results depend on the processing

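Of all tested probes 0 passed (limma; 2638 at an unadjusted p of 0.05), against 32 with median scaling and between 0 and 3705 when 1 array was left out. The highest count came without EnhDel replicate 1. It was 118 if EnhDel replicate 2 was the one left out, 3 for control replicate 2 and 0 for control replicate 1. Likewise 0 receptor probes passed, and between 0 and 7 with 1 array left out: without EnhDel replicate 1 the 7 were both Csf2rb and both Csf2rb2 probes, Il5ra, Il6st and the last Csf1r probe, and without EnhDel replicate 2 it was the last Csf1r probe alone. With the replicate number as a block, 0 probes passed (lowest adjusted p 0.255; 2472 at an unadjusted p of 0.05) and no receptor call changed; the samples share only a number. The receptor median ran from -0.02 to 0.26 with 1 array left out, was -0.069 with median scaling, and was 0.0066 with 1 value a gene (brightest probe or mean of probes), against 0.11. Normexp correction moved the median of all probes to 0.26 and median scaling to -0.12. The probes that turned direction follow. Normexp gave Csf2ra -0.16, Csf3r -0.32 and the second Csf1r probe 0.18. Spots of high local background were 6 on EnhDel replicate 1 and 0 on each other array. With these repaired, normexp gave Csf2ra 0.10, the second Csf1r probe -0.15 and Csf3r -0.044, and the median of all probes was 0.058. Median scaling (32 probes past the threshold overall) gave Csf2ra -0.069 and Csf3r -0.17. Il6ra became 0.0035 with quantile normalization and 0.018 with cyclic loess. With 1 array left out, Csf2ra ran from -0.025 to 0.24, the first Csf1r probe from -0.020 to 0.65, the upstream Csf2rb probe from -0.020 to 0.95, the upstream Csf2rb2 probe from -0.0058 to 1.18, Il6ra from -0.21 to 0.17 and Csf3r from -0.24 to 0.26. Beyond that repair, causes of these shifts were not tested.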

Other observations

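The remaining marker lists give the setting in which the receptors were measured. Of 12 early B lineage genes, 11 were tested, and both EnhDel arrays lay below both control arrays on 9 of them (16.8% of all probes), with a median difference of -2.21. On 10 tested NK and T cell genes the median difference was 0.49, with both EnhDel arrays above both controls on 4 (26.9% of all probes). The 9 plasmacytoid dendritic cell markers had a median difference of 0.04. In none of these lists did a probe pass the adjusted threshold (limma; 0% of all probes).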
